A study of Mus musculus with 6 samples.

Results

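The genes described here are 10 chemokine ligands that macrophages can make, namely Ccl2, Ccl3, Ccl4, Ccl5, Ccl6, Ccl7, Ccl9, Cxcl2, Cxcl10 and Cxcl16. They were chosen by name from the CC and CXC families, with earlier results of these data known. All 10 were found among the 16387 named genes of the expression table, each with 1 probe set. The table came from 6 microarrays of RAW264.7, an established macrophage cell line of the mouse. A vector clone (clone 3, empty pEF6/V5-His vector) and an Ms4a8a clone (clone 8, the same vector with an Ms4a8a cDNA) had 3 arrays each, numbered 1 to 3 in the titles. Both clones had been selected with blasticidin and kept for 48 h in serum-containing medium, with no stimulus named in the labels. Each group is a single clone, so transgene and clone cannot be told apart, and whether a clone's arrays stem from different cultures is not stated in the labels. Spread between arrays, on which the p-values rest, may then be technical.

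Chemokines are small secreted proteins that guide leukocytes by binding G-protein-coupled receptors. The families are named for their first cysteines, which lie side by side in CC ligands and are parted by a residue in CXC ligands. In macrophages, genes such as Cxcl2, Ccl3 and Ccl4 belong to the early response to inflammatory signals through NF-kB, Cxcl10 is a classical interferon-induced gene, and Cxcl16 encodes an unusual ligand that is anchored in the membrane.

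The values are log2 expression values, so a difference of 1 is a 2-fold change, and they are compared between arrays for each gene and not between genes. Ms4a8a, the transfected gene, lay between 3.07 and 3.32 in the vector clone but between 7.40 and 8.15 in the other, so the labels of the clones held. Of 11 macrophage identity genes measured, 10 lay above the median gene in their mean over the 6 arrays. Of those named here for their role as markers, Csf1r (12.7 to 13.0) and Cd68 (12.7 to 13.2) were high on every array, Adgre1 (6.76 to 9.46) and Itgam (6.19 to 9.36) varied, and Mertk (2.24 to 2.62) lay at the low end of the scale. Same-numbered arrays deviated alike from their clone's mean, though vector array 1 was as near to Ms4a8a array 2 as to Ms4a8a array 1. Number 3 stood apart in both clones over all genes. The labels give no reason for that. Differences between the clones are therefore given for a limma model without the replicate number and, where it changes a call, for one with the number as a block, called blocked. Comparisons of number 3 with numbers 1 and 2 are descriptions with no test, because number 3 was singled out from these same arrays.

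Cxcl16 was the sole member that differed between the clones in the blocked model, and it was higher in the Ms4a8a clone at every number. The encoded protein sits on the cell surface as a scavenger receptor for oxidised lipoprotein and, once shed by ADAM proteases, attracts lymphocytes that carry Cxcr6. On arrays 1, 2 and 3 it read 8.92, 8.84 and 9.75 in the vector clone but 10.42, 10.22 and 10.76 in the Ms4a8a clone. The lowest Ms4a8a array lay above the highest vector array. Across all genes, 3.89% had arrays of the clones that did not overlap with the Ms4a8a clone higher, and Cxcl16 was the single member among them. Its mean of 10.47 ± 0.27 (SD, n = 3) in the Ms4a8a clone was 2.45-fold above that of the vector clone, 9.17 ± 0.50 (SD, n = 3). The log2 difference was 1.29 (SE 0.28, limma adjusted p = 0.847) without the block, and with the block the same difference had an SE of 0.11, a 95% interval of 1.02 to 1.57 and an adjusted p of 0.0102. By number it was 1.49, 1.38 and 1.01. A positive difference at all 3 numbers, which Cxcl16 alone of the members had, was seen for 17.2% of all genes, and a negative one, which Ccl4 alone had, for 18.9%.

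None of the 10 members passed without the block, where 0.0427% of all genes did, and 1 of 10 passed with it, where 0.909% of all genes did (0.458% upward). A single call among 10 members is a small count. The members, Cxcl16 among them, were chosen with earlier results of these data known, so the count is a description and no test. The median difference of the members was -0.04, beside -0.00488 for all genes, with 4 positive and 6 negative differences. Over the other 9 members the median was -0.07.

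**Figure D1:**
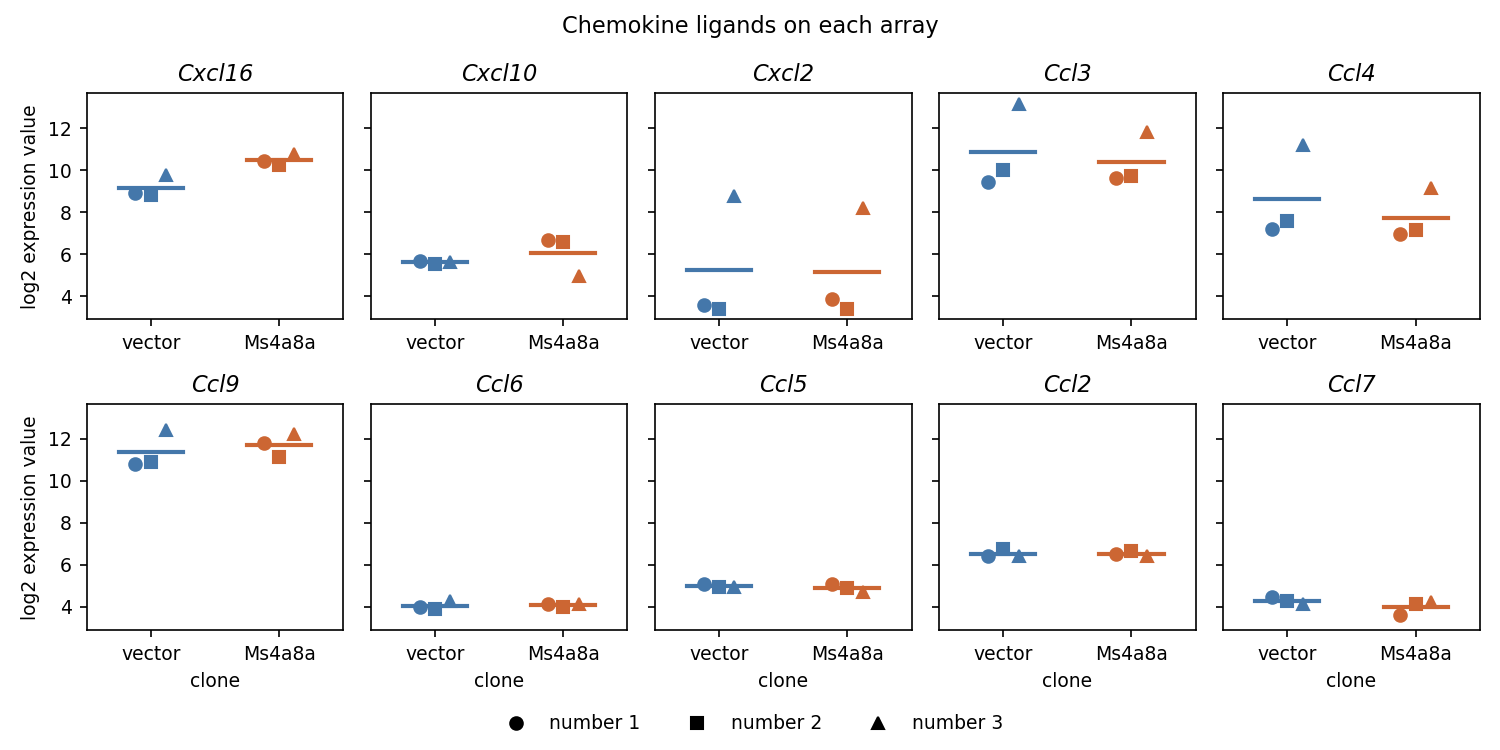
Log2 expression value of each chemokine ligand (y axis) on each array of the vector clone and the Ms4a8a clone (x axis), with circles, squares and triangles for numbers 1, 2 and 3 and a bar for the clone mean. The Cxcl16 arrays of the clones do not overlap, and the triangles of Cxcl2, Ccl3 and Ccl4 lie far above the other arrays of the same clone.

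The gene next to Cxcl16 on one side was also higher in the Ms4a8a clone. In RefSeq's order of protein-coding genes on mouse chromosome 11 (GRCm38.p6), Cxcl16 lies between Med11 and Zmynd15. Zmynd15, which encodes a zinc finger protein known from spermatid development, read 5.36, 5.51 and 5.50 in the vector clone and 6.26, 6.29 and 6.005 in the Ms4a8a clone. Its log2 difference was 0.73 (blocked SE 0.10, blocked limma adjusted p = 0.0390; adjusted p = 0.429 without the block). Med11, a subunit gene of the Mediator complex on the other side, differed by -0.07 (blocked adjusted p = 0.762).

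Cxcl10, whose product draws activated T cells through Cxcr3, was higher in the Ms4a8a clone at numbers 1 and 2 and lower at number 3. It read 5.68, 5.53 and 5.64 on the vector arrays, which lay close together, and 6.66, 6.58 and 4.97 in the Ms4a8a clone. The first pair of Ms4a8a arrays lay above every vector array and Ms4a8a array 3 lay below every one of them. The differences by number were 0.98, 1.06 and -0.67. Over all arrays the log2 difference was 0.46 (SE 0.46, limma adjusted p = 1, blocked adjusted p = 0.628, blocked 95% interval -0.36 to 1.27). With both arrays of number 3 left out it was 1.02, or 2.03-fold higher in the Ms4a8a clone (limma adjusted p = 0.0133, blocked 0.00418). Number 3 was singled out from these same arrays and held the opposite sign for Cxcl10. The p-values of fits without number 3 therefore describe the remaining arrays and are no test. In this fit without number 3, 0.482% of all genes rose (1.57% with the block), and 2 members did, Cxcl10 and Cxcl16 (Cxcl16 log2 difference 1.44, adjusted p = 0.00501). With Ms4a8a array 3 alone left out the Cxcl10 difference was 1.01 (limma adjusted p = 0.165), and 0 members passed (2 at an unadjusted p under 0.05). Over all 16387 genes, 8 passed in that fit and 620 had an unadjusted p under 0.05.

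**Figure D2:**
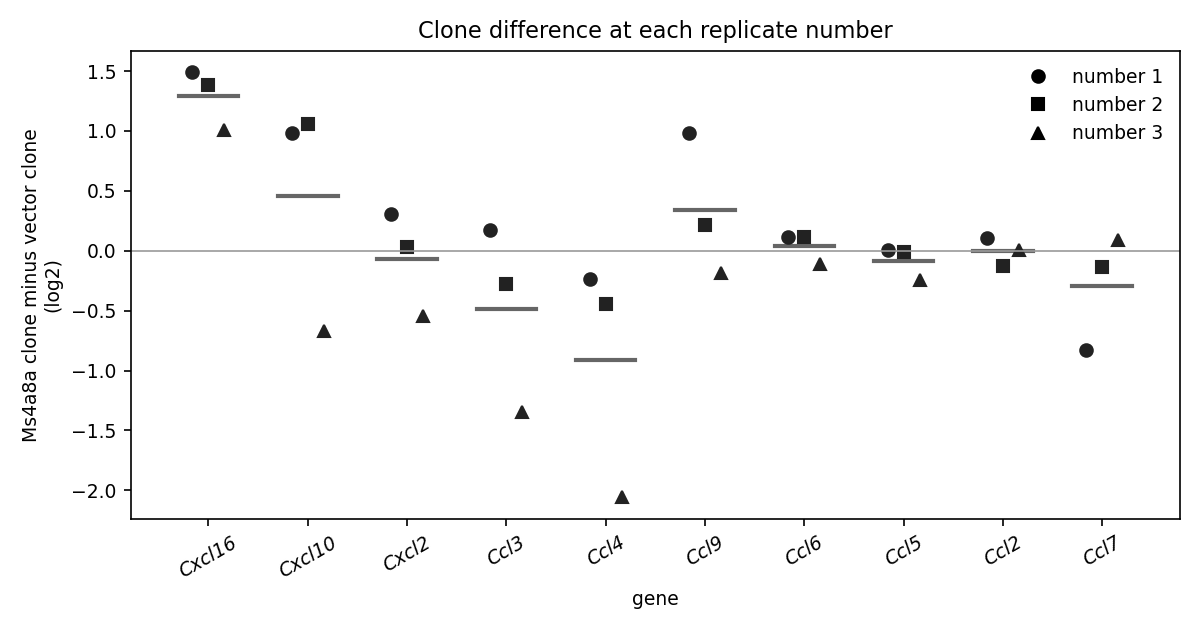
Difference between the Ms4a8a clone and the vector clone in log2 units (y axis) for each chemokine ligand (x axis) at numbers 1 (circle), 2 (square) and 3 (triangle), with a bar for the mean. Cxcl16 is above 0 at all 3 numbers, Cxcl10 changes sign at number 3, and Ccl4 is furthest below 0 at number 3 with -2.06.

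The other strong pattern among the members ran between the array numbers and not between the clones. Cxcl2, a ligand that recruits neutrophils through Cxcr2, read 3.57, 3.37 and 8.76 in the vector clone and 3.88, 3.40 and 8.21 in the Ms4a8a clone. On the number 3 arrays it was thus high in both clones, and on numbers 1 and 2 it was near the low end of the scale, with 16.3% to 25.8% of genes below it. Number 3 was 39.1-fold above the mean of numbers 1 and 2 in the vector clone (log2 difference 5.29) and 23.8-fold above it in the Ms4a8a clone (4.57). With the starting values that low, the fold may be understated. These differences ranked 3 and 7 from the top among all 16387 genes. Between the clones Cxcl2 differed by -0.07 (blocked 95% interval -0.47 to 0.32, blocked adjusted p = 0.910), and by 0.30, 0.03 and -0.55 at the 3 numbers.

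Ccl3 and Ccl4, the macrophage inflammatory proteins 1-alpha and 1-beta that attract monocytes and T cells, were also highest on number 3 in both clones, by smaller steps than Cxcl2. Ccl3 read 9.44, 9.99 and 13.16 in the vector clone and 9.61, 9.71 and 11.82 in the Ms4a8a clone. Ccl4 read 7.18, 7.58 and 11.18 in the vector clone and 6.94, 7.14 and 9.12 in the Ms4a8a clone. On number 3 both genes were higher in the vector clone than in the Ms4a8a clone. Number 3 exceeded the mean of numbers 1 and 2 by 3.45 for Ccl3 and 3.80 for Ccl4 in the vector clone, which are 10.9-fold and 14.0-fold, and by 2.16 and 2.08 in the Ms4a8a clone, which are 4.45-fold and 4.24-fold. The difference between the clones at number 3 was -1.34 for Ccl3 and -2.06 for Ccl4, and at numbers 1 and 2 it was 0.17 and -0.28 for Ccl3 and -0.23 and -0.44 for Ccl4. Over all arrays neither passed, with log2 differences of -0.48 (blocked adjusted p = 0.513) and -0.91 (0.341, blocked 95% interval -1.75 to -0.08). With 1 array per clone at number 3, the gap between the clones there has no replicate check.

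Ccl9, a rodent CC ligand that acts through Ccr1 and is known from osteoclasts, read 10.82, 10.92 and 12.43 in the vector clone and 11.80, 11.14 and 12.24 in the Ms4a8a clone. It was highest on number 3 in both clones, with Ms4a8a array 1 between the extremes. Number 3 lay 1.56 above the mean of numbers 1 and 2 in the vector clone but 0.78 above it in the Ms4a8a clone. The clones differed by 0.34 (blocked 95% interval -0.18 to 0.85, blocked adjusted p = 0.557), and by 0.98, 0.22 and -0.19 at numbers 1, 2 and 3. That difference was 0.05 without vector array 1 and 0.86 without vector array 3, the extremes when each array was left out in turn. Cxcl16 was also highest on number 3 in both clones, by 0.87 and 0.44 over the mean of numbers 1 and 2.

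Counted at 1 log2 unit or more, 4 of 10 members were higher on number 3 in the vector clone (Cxcl2, Ccl3, Ccl4 and Ccl9), where 5.24% of all genes were. In the Ms4a8a clone 3 of 10 were (Cxcl2, Ccl3 and Ccl4), where 5.05% of all genes were, and those 3 passed in both clones, as did 3.73% of all genes. In the other direction 0 members passed in the vector clone (3.72% of all genes) and Cxcl10 alone did in the Ms4a8a clone (4.35%), by -1.65. The median over the members was 0.60 in the vector clone against 0.39 in the other, beside -0.04 and -0.02 for all genes. The members were chosen with this pattern known, so the counts describe them and are no test.

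**Figure D3:**
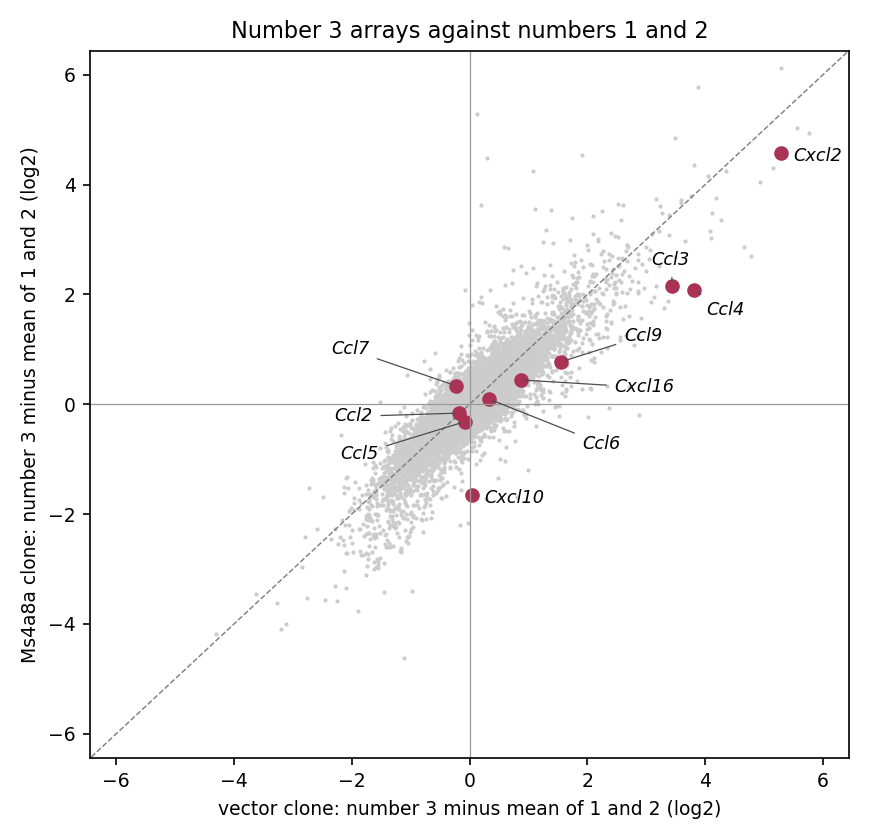
Number 3 minus the mean of numbers 1 and 2 in log2 units in the vector clone (x axis) and the Ms4a8a clone (y axis), with a grey point per named gene, the 10 chemokine ligands in red and a dashed line of equal values. Cxcl2 lies at 5.29 and 4.57, Ccl3 and Ccl4 lie below the line, and Cxcl10 lies at 0.04 and -1.65.

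RefSeq's promoter table (GRCm38.p6) held 5 of the 10 members, with no entry for Ccl2, Ccl4, Ccl5, Ccl7 and Cxcl16. Of those 5, sequence is shown for Cxcl2, Ccl3 and Ccl9, which were highest on number 3 in both clones, and for Cxcl10, which was not. Ccl6, whose sequence is not shown, was also highest on number 3 in both clones. Its number 3 arrays lay just 0.33 (vector clone) and 0.098 (Ms4a8a clone) above the mean of numbers 1 and 2. The 250 bases before the annotated start are given 5′ to 3′ on the gene's strand. Capitals mark matches, on either strand, to a kB-type motif (GGGNNNTTCC, N for any base), an AP-1 motif (TGANTCA) and an interferon response motif (GAAANNGAAA). The windows are chr5:90903649-90903898 (plus strand) for Cxcl2, chr5:92348890-92349139 (minus strand) for Cxcl10, chr11:83649379-83649628 (minus strand) for Ccl3 and chr11:83578637-83578886 (minus strand) for Ccl9.
Cxcl2: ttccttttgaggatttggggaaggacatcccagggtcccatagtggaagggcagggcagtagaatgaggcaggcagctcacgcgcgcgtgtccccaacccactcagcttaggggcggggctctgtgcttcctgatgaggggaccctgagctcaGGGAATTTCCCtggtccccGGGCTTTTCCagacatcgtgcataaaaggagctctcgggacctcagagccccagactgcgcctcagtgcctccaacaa
Cxcl10: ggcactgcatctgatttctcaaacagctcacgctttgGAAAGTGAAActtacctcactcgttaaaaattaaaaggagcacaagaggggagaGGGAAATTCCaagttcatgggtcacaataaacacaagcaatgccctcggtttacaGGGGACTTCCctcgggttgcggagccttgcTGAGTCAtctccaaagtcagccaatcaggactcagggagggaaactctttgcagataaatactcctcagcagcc
Ccl3: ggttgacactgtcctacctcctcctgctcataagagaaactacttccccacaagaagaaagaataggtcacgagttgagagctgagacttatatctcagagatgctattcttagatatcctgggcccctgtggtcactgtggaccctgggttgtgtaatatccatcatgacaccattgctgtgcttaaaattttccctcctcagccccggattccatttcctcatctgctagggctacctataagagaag
Ccl9: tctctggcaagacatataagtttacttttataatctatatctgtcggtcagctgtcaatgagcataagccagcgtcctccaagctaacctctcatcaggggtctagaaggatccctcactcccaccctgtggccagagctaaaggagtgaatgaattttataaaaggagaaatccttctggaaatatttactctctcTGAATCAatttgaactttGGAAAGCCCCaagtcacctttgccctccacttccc

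The Cxcl2 window held 3 kB-type matches, of which 2 overlap on opposite strands (GGGAATTTCC ends 87 bases before the start) and the other, GGGCTTTTCC, ends 68 bases before it. Cxcl10, which was not high on number 3, held 2 such matches, GGGAAATTCC and GGGGACTTCC, together with an interferon response match (GAAAGTGAAA) and an AP-1 match (TGAGTCA). Ccl9 held 1 kB-type match on the opposite strand and 1 AP-1 match (TGAATCA). The windows of Ccl3 and of Ccl6, the fifth member in the table, held none of these letters. Of all 32851 windows of this length in the table, 4.65% held the kB-type motif, 6.75% the AP-1 motif and 2.98% the interferon response motif. The kB-type letters were present in Cxcl2 and Ccl9, which were high on number 3, and in Cxcl10, which was not. They were absent from Ccl3, which was high on number 3. A match is a description of the letters and says nothing on what binds there.

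Along the CC cluster of chromosome 11 the genes with high number 3 arrays were not one unbroken run on these probe sets. RefSeq's order is Ccl5, Ccl9, Ccl6, Ccl3, Ccl4 and Wfdc17, the last encoding a small whey acidic protein family member expressed in activated macrophages. Ccl6, a rodent CC ligand between Ccl9 and Ccl3, read 4.01, 3.88 and 4.27 in the vector clone and 4.12, 3.99 and 4.16 in the Ms4a8a clone. Ccl5, the T cell and monocyte attractant RANTES, read 5.10, 4.94 and 4.95 and then 5.11, 4.92 and 4.70. Both were nearly level across the arrays, though Ccl6 was highest on number 3 in both clones. The Ccl6 probe set read 4.27 or less, so a larger rise of Ccl6 may have been missed. Wfdc17, beside Ccl4, read 7.18, 6.17 and 11.83 in the vector clone and 7.04, 5.97 and 10.80 in the Ms4a8a clone, so number 3 lay 5.16 and 4.30 above the mean of numbers 1 and 2. On chromosome 5, the 6 genes from Cxcl5 to Cxcl1 that precede Cxcl2 differed by -0.30 to 0.24 in the same comparison, all on probe sets reading 4.62 or less.

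**Figure D4:**
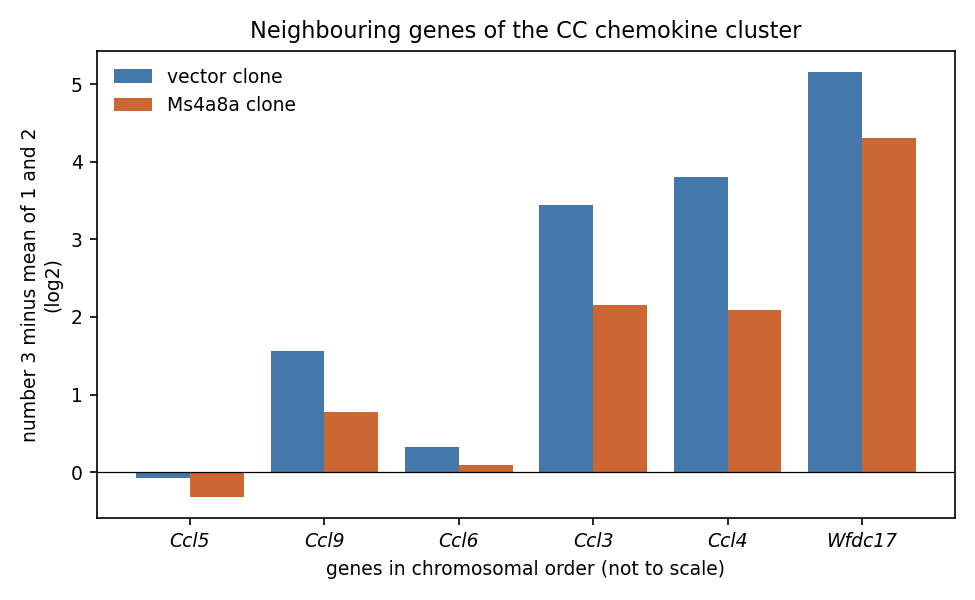
Number 3 minus the mean of numbers 1 and 2 in log2 units (y axis) for 6 neighbouring genes in their order on chromosome 11 (x axis, not to scale), with blue bars for the vector clone and orange bars for the Ms4a8a clone. Ccl3, Ccl4 and Wfdc17 have the tallest bars, and Ccl5 and Ccl6, on both sides of Ccl9, lie near 0.

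Of the remaining members, Ccl2, Ccl5 and Ccl6 were nearly level on all arrays, and Ccl7 spanned 0.83 log2 units. Ccl2, the monocyte attractant MCP-1, which acts through Ccr2, read 6.42, 6.77 and 6.42 in the vector clone and 6.52, 6.65 and 6.43 in the Ms4a8a clone. Its difference of -0.00586 had a blocked 95% interval of -0.20 to 0.19. Ccl7, a ligand of Ccr2 that lies beside Ccl2, read 4.46, 4.27 and 4.13 in the vector clone and 3.63, 4.13 and 4.22 in the Ms4a8a clone. Its groups overlapped and its difference was -0.29 (blocked 95% interval -0.72 to 0.14, blocked adjusted p = 0.546). The differences of Ccl5 and Ccl6 were -0.08 (-0.29 to 0.12) and 0.04 (-0.17 to 0.24). Differences of 1 log2 unit therefore lay outside the blocked intervals of all 4 of these genes. Ccl5, Ccl6 and Ccl7 lay below the median gene in their mean, so differences of their transcripts may be understated by these readings. Detection calls were not used, so low readings do not show that a transcript was missing.

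Genes with the most similar profiles over the 6 arrays were taken as those with the smallest root mean square difference of mean-centred log2 values, among 8020 genes no lower than the median one. For Cxcl16 they were the Ms4a family member Ms4a6c (0.16), the cytokine receptor subunit gene Crlf2 (0.16) and the zinc finger gene Zfp799 (0.16). For Cxcl2 they were Wfdc17 (0.36), the low-affinity IgG receptor gene Fcgr3 (0.47) and Ahnak2 (0.50). Ccl3 and Ccl4 were near each other (0.25), with the secreted factor gene Metrnl (0.22 from Ccl3) and the granulocyte colony-stimulating factor receptor gene Csf3r (0.26 from Ccl3 and 0.31 from Ccl4). The profile of Cxcl10 was nearest to those of Dock5 (0.27), Paqr4 (0.27) and the transcription factor gene Nfatc1 (0.30), and that of Ccl9 to Rapgef5 (0.10), Dnase1l1 (0.13) and Fam102a (0.14). Many genes lie close to a level profile, so those nearest to the other members are not named.

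Receptor genes did not differ past the threshold between the clones. Of 21 measured chemokine receptor genes, 0 passed with or without the block, with 8 positive and 13 negative differences (median -0.03). Over all genes 0.909% passed with the block and 0.0427% without it, so a count of 0 in a short list says little. Cx3cr1, the fractalkine receptor, read 10.44, 9.61 and 10.88 in the vector clone and 11.09, 10.11 and 11.35 in the Ms4a8a clone, a difference of 0.54 (blocked adjusted p = 0.0510). Cxcr3, the receptor for Cxcl10, read 7.85, 8.41 and 7.45 and then 7.47, 7.64 and 6.63, a difference of -0.66 (blocked adjusted p = 0.0658). Cxcr4, the receptor for Cxcl12, read 3.91, 3.70 and 8.59 in the vector clone and 6.53, 5.20 and 8.57 in the Ms4a8a clone, so it was highest on number 3 in both clones and differed by 1.36 between them (blocked adjusted p = 0.284). Cxcr2, the receptor for Cxcl2, differed by -0.19. Cxcr6, which binds Cxcl16, was outside the naming rule and is given for that role. It read 2.84 to 3.05 on all 6 arrays.

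Of 23 other chemokine ligand genes measured, 0 passed with the block (0.909% of all genes) or without it (0.0427%). Their median difference was 0.04, with 15 positive and 8 negative. On number 3 none was higher by 1 log2 unit in the vector clone (5.24% of all genes) or the Ms4a8a clone (5.05%). Cxcl14 was lower on it in the Ms4a8a clone, by -1.50. In their mean over the 6 arrays 0 of the 23 reached the median gene, so a rise may have been missed. Of 9 genes for proteins that shed or cleave chemokines, 0 passed, beside the same shares of all genes. Adam10 and Adam17, the proteases that release Cxcl16 from the membrane, differed by 0.06 (blocked 95% interval -0.15 to 0.28) and -0.19 (-0.68 to 0.30). Adam17 read 10.49, 10.08 and 11.53 in the vector clone and 10.64, 10.20 and 10.70 in the Ms4a8a clone.

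Genes listed for inducing chemokine transcripts, holding NF-kB back or limiting transcript half-life were also highest on number 3 in part. Of 21 measured, 0 passed between the clones with the block (0.909% of all genes) or without it (0.0427%). On number 3, 7 of the 21 were higher by at least 1 log2 unit in both clones, as were 3.73% of all genes. Tnf, the inflammatory cytokine, is named after its values were seen. It read 8.83, 8.72 and 11.23 in the vector clone and 8.85, 8.67 and 10.96 in the Ms4a8a clone. The NF-kB inhibitor gene Nfkbia was 1.58 and 1.18 higher on number 3, the NF-kB subunit gene Relb was 2.20 and 1.21 higher, Irf8 was 1.43 and 1.97 higher, and Zfp36, whose product promotes decay of such transcripts, was 1.74 and 1.42 higher. Between the clones these 4 differed by 0.16, 0.23, -0.22 and 0.18. Other genes of the list were lower on number 3, 5 of 21 in the vector clone and 7 of 21 in the Ms4a8a clone. Over all 16387 genes, 9180 and 8686 were lower. By 1 log2 unit in both clones, 0 of the list were lower, as were 2.8% of all genes. Among the lower genes of the list, and named after their values were seen, the NF-kB subunit gene Rel differed by -0.57 and -1.38 and Nfkb1 by -0.13 and -0.68.

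Markers of other cells did not move by 1 log2 unit on number 3. In their mean over the 6 arrays 0 of them reached the median gene, so a move may have been missed. The mean log2 level of 7 lymphocyte markers was 3.91 to 3.94 on the vector arrays and 3.86 to 3.97 on the Ms4a8a arrays. It was 3.62 to 3.80 and 3.69 to 3.79 for 7 granulocyte and mast cell markers, 5.02 to 5.13 and 4.70 to 5.02 for 5 dendritic cell markers, and 3.63 to 3.72 and 3.66 to 3.75 for 8 fibroblast and epithelial markers. Of these 4 lists 0 genes moved by 1 log2 unit on number 3 in either clone. Over all 16387 genes, 1468 (vector clone) and 1540 (Ms4a8a clone) moved that far, up or down, so a count of 0 in short lists says little. Siglech and S100a8 are named after their values were seen. The dendritic cell marker Siglech fell just short of the limit, with -0.99 for the Ms4a8a arrays. The granulocyte marker S100a8 moved by -0.84 (vector clone) and -0.73 (Ms4a8a clone). Among 11 macrophage identity genes, 9 were higher on number 3 in the vector clone and all 11 in the other, beside 7205 and 7697 of all 16387 genes. By at least 1 log2 unit in both clones, 2 of the 11 were higher, as were 3.73% of all genes. The part of these rises in the chemokine values was not tested. Between the clones 0 of these 11 passed with the block (0.909% of all genes) or without it (0.0427%). The 4 with the largest difference were Itgam (-0.76), Tlr4 (0.71), Lyz2 (0.34) and Adgre1 (0.32).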

How the data were processed

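Total RNA of 3 arrays per clone was labelled as biotinylated cRNA with the usual Affymetrix procedure, as the labels' protocols state. The deposited values are log2 expression values, 1 per probe set and array, and after sorting the 6 columns were identical, as after quantile normalisation by the authors. Summary method, background correction and software are not given in the sources used here. Of 17370 probe sets, 64 were controls, 16387 had a gene symbol and 919 had none. Symbols were updated through RefSeq gene IDs (16358 found, 1773 symbols changed).

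The clones were compared with limma 3.58.1 (R 4.3.3) by lmFit and eBayes on all 16387 genes, with two-sided tests, a threshold of 0.05 after Benjamini-Hochberg adjustment across the whole table, no filter and no offset. The fit was tested on simulated data. The alternative model took the replicate number as block. Same-numbered arrays correlated in their deviations from the clone means (0.709, 0.809 and 0.865 for numbers 1, 2 and 3, all above 0.1), so the numbers were treated as pairs, though vector array 1 correlated as well with Ms4a8a array 2 (0.713). Deviations cancel out over the 3 arrays of a clone. A number 3 shift shared by both clones therefore makes their arrays 1 and 2 correlate in any pairing. Passing 0.1 thus does not show that numbers 1 and 2 are true pairs, and the blocked calls rest on that pairing. The source names exchange numbers 1 and 2 in both clones alike, which leaves the pairs as they are. Other alternatives were filters on low values, array weights, an intensity trend, cyclic loess and leaving out arrays.

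The members, the gene lists and the comparison of number 3 were chosen with earlier results of these data known. Named genes were the members, Ms4a8a, their 3 nearest profiles and from each other list the genes that passed or otherwise the up to 4 largest differences no lower than the median gene. Chromosomal neighbours and genes stated as such were added later. The number of arrays limits the precision. Figures were drawn with matplotlib 3.10.9.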

Additional observations from a re-analysis of the deposited data

Results flagged for a closer look

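Ccl7 moved in opposite directions in the clones when number 3 was set against numbers 1 and 2. In the vector clone array 3 lay below both other arrays, by 0.23 from their mean (log2 difference -0.23), and in the Ms4a8a clone it lay above both, by 0.34. The difference between the clones in this respect was not tested, and all 6 values lay between 3.63 and 4.46.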

How the results depend on the processing

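Cxcl16 was higher in the Ms4a8a clone in all 20 alternatives, by 1.13 to 1.59, and its adjusted p ranged from 0.00163 to 1. It passed in all 6 fits with a block, the highest adjusted p being 0.0357. The count of members that passed was 0. At an unadjusted p under 0.05 there was 1, beside 3.2% of all genes. The count that passed was 1 with the replicate block and with array weights. It was also 1 with the block combined with cyclic loess, an intensity trend or leaving out number 1 or 2. It was 2 without both arrays of number 3, with or without the block, and 0 without each array in turn. The count over all genes was 7, and it became 149 with the block, 1 above the median level, 47 with array weights, 12 with an intensity trend, 147 without number 3 (434 with the block), 0 to 8 without each array in turn, and, with the block, 101 without number 1, 104 without number 2, 134 after cyclic loess and 155 with an intensity trend. Without the block it was 0 without number 1 or number 2 (169 and 211 genes at an unadjusted p under 0.05). The median difference of the members ran from -0.081 to 0.41 without each array in turn, the highest being without vector array 3. Differences that passed in neither fit changed sign for Ccl5 (0.018) and Cxcl2 (0.15) with array weights, for Cxcl2 without number 3 (0.17), for Ccl6 without number 1 (-0.00049) and for Ccl2 without number 2 (0.053). Without each array in turn Ccl2 ran from -0.065 to 0.11, Ccl3 from -1.20 to 0.66, Ccl4 from -1.65 to 0.36, Ccl5 from -0.18 to 0.021, Ccl6 from -0.049 to 0.15, Ccl7 from -0.40 to -0.11, Ccl9 from 0.051 to 0.86, Cxcl10 from 0.16 to 1.01 and Cxcl2 from -1.60 to 1.69. The cause of these changes was not tested. With the block alone no member's call other than that of Cxcl16 changed. The block combined with cyclic loess or a trend, and leaving out number 1 or 2, were chosen after seeing the data. Leaving out number 3 was planned, but with earlier results of these arrays known. Cyclic loess moved no member's clone difference by more than 0.00614 and no number 3 difference by more than 0.117, and turned the latter for Ccl5 in the vector clone (0.0026). No scanner files or detection calls were used here, so background could not be weighed for the low probe sets.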

Other observations

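Among the other chemokine ligands, Cxcl14, a CXC ligand best known from epithelia, had a profile close to that of Cxcl10 and is named after its values were seen. It read 3.81, 3.90 and 3.59 in the vector clone and 4.56, 5.41 and 3.48 in the Ms4a8a clone, so Ms4a8a arrays 1 and 2 were above every vector array and Ms4a8a array 3 was below them. Its difference over all arrays was 0.72 (blocked limma adjusted p = 0.355). The atypical receptor gene Ccrl2, also named after its values were seen, read 5.45, 5.26 and 7.03 in the vector clone and 5.31, 5.05 and 6.68 in the Ms4a8a clone. It and Cxcr4 were the 2 of 21 receptor genes that were higher on number 3 by at least 1 log2 unit in both clones. Over all genes 3.73% were.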
